A study of Mus musculus with 6 samples.

Results

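The genes described here are 43 cell cycle genes of the fetal mouse testis, 30 that act in mitosis and 13 that act in S phase. They were listed by name for their known roles in the cell cycle, with earlier results of these data known, and each was matched by its symbol to 1 of the 42747 rows of the gene count table. All 43 passed the filter on low counts, with 209 to 11962 counts per library, and belong to the 18383 genes tested. RNA was measured in whole testes of mouse embryos at E16.5 in 6 libraries, 3 of cKO mice and 3 of WT mice. From the series title, cKO was read as a conditional knockout in Sertoli cells, which surround and nurse the germ cells in the testis cords. The gene taken as deleted is Csnk1a1, which encodes the kinase CK1α. The WT embryos carry no deletion named in the labels, and no treatment is named for either group. The sources used here do not give the Cre driver, the floxed allele or the strain.

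A dividing cell copies its DNA in S phase and separates the copies in mitosis. In S phase the MCM helicase, loaded onto origins by CDC6 and CDT1 and activated together with GINS, opens the DNA, the PCNA clamp holds the polymerases in place, and ribonucleotide reductase supplies the nucleotides. In mitosis the kinase CDK1 with its cyclins starts chromosome condensation and spindle assembly, and the spindle checkpoint holds back CDC20 and the anaphase promoting complex until every kinetochore is attached. The chromosomal passenger complex, kinesins and the RHOA activator ECT2 then guide chromosome segregation and cytokinesis. Transcription of S phase genes depends largely on E2F factors, and that of mitosis genes on the DREAM and MuvB complexes, which bind CHR elements (cell cycle genes homology regions) often found beside CCAAT boxes. The CDK inhibitor p21, encoded by Cdkn1a, keeps the RB family active and so favours repression of both groups. In the fetal testis at this age Sertoli cells and several interstitial cell types divide, while male germ cells have stopped dividing.

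Libraries held 15092619 to 17431546 counts, and tested genes had a median of 282 to 329 counts per library. Levels are given as CPM, each count as a share of the TMM-scaled library total. Fold changes are cKO against WT on the log2 scale from edgeR's quasi-likelihood test, with their standard errors (SE), and a gene was called when its adjusted p was under 0.05. Of all tested genes 276 were called higher and 339 lower. Csnk1a1 counts did not differ between the groups (log2 fold change 0.08, edgeR adjusted p = 0.798), and counts over the whole gene do not show whether part of it was deleted in 1 cell type, so they do not check the labels. Cdkn1a measured 76.1, 73.7 and 61.2 CPM in cKO libraries 1, 2 and 3 and 5.29, 3.33 and 2.93 CPM in WT libraries 1, 2 and 3. In RNA of a whole organ, fewer cells of a type and less RNA per cell cannot be told apart.

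The promoters of 8 of the genes are printed, those of the 4 mitosis genes with the smallest p (Plk1, Kif23, Bub1 and Cenpe) and of the 4 S phase genes with the smallest p (Cdc6, Rrm2, Mcm6 and Rrm1), to show the letters near the starts of both groups. Sequences are from RefSeq (GRCm38.p6) and cover 250 bases before to 50 bases after the annotated start, 5′ to 3′ on the strand of the gene. The windows lie at chr7:122159185-122159484 (plus strand) for Plk1, chr9:61946750-61947049 (minus strand) for Kif23, chr2:127831810-127832109 (minus strand) for Bub1, chr3:135212313-135212612 (plus strand) for Cenpe, chr1:128359656-128359955 (minus strand) for Mcm6 and chr11:98907901-98908200 (plus strand) for Cdc6. Those of ribonucleotide reductase lie at chr12:24708004-24708303 (plus strand) for Rrm2 and chr7:102441445-102441744 (plus strand) for Rrm1. Capitals mark exact matches on either strand to CHR letters (TTTGAA or TTCGAA), to CCAAT and to E2F letters (TTTCGCGC, TTTGGCGC, TTTCCCGC or TTTGCCGC). The letters TTTAAA were not counted as CHR letters, and they stand in lower case in the windows of Plk1, Cenpe and Rrm2. In Mcm6, 2 of the 3 E2F matches lie on opposite strands and overlap, and they form 1 run of capitals.
Plk1: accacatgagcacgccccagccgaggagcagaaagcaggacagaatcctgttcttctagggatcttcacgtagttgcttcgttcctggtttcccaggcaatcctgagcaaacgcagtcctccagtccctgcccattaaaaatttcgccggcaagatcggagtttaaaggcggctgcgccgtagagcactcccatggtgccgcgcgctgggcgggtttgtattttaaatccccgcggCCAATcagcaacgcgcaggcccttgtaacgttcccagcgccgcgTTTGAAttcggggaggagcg
Kif23: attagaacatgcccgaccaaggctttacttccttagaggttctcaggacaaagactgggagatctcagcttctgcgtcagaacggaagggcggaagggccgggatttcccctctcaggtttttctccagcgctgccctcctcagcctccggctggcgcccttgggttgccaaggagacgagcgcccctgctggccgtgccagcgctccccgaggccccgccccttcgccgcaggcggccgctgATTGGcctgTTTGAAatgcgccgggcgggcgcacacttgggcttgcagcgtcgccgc
Bub1: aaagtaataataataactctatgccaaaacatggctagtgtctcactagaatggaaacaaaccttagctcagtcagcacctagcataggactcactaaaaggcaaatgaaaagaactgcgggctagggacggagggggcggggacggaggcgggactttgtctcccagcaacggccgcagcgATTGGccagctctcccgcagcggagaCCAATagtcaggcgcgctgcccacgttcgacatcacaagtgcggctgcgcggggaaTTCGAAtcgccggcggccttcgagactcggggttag
Cenpe: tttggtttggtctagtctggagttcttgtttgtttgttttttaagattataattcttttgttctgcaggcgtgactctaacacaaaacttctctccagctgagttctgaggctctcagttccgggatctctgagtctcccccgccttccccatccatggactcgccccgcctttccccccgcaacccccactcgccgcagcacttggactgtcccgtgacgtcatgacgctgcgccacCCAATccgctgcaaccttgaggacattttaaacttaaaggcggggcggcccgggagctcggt
Mcm6: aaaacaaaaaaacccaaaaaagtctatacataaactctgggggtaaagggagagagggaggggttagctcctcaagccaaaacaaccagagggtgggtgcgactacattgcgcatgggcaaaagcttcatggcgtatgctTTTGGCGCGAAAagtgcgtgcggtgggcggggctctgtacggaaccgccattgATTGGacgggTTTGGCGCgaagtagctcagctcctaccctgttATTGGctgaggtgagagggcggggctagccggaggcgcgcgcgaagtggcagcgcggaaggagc
Cdc6: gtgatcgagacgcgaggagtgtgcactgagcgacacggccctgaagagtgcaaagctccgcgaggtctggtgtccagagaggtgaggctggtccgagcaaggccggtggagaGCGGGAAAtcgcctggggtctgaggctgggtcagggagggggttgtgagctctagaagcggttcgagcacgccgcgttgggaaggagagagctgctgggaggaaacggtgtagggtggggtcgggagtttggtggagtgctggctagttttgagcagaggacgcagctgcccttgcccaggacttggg
Rrm2: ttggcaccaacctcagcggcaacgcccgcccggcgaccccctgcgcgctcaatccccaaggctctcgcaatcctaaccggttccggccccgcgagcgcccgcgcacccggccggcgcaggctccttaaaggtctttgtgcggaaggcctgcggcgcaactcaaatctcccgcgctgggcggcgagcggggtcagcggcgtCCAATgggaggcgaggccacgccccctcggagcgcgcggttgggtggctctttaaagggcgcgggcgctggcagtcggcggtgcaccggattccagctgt
Rrm1: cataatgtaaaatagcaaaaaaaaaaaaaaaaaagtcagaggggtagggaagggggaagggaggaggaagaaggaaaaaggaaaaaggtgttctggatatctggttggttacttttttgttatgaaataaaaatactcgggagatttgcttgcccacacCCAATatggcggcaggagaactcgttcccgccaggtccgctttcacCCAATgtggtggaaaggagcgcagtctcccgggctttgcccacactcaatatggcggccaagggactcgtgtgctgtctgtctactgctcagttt

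In Plk1, Kif23 and Bub1 the CHR letters began at bases 31, 3 and 15, counted from the annotated start as base 1, each downstream of a CCAAT match. Of the marked letters, Cenpe, Rrm1 and Rrm2 held CCAAT matches alone, Mcm6 held E2F letters and CCAAT matches, and Cdc6 held E2F letters alone. Promoters were found for 34 of the 43 genes, 24 mitosis and 10 S phase genes. Some genes had more than 1 start, which gave 26 mitosis and 11 S phase windows of 300 bases. No promoter was found in the table for Ccna2, Aurkb, Incenp, Kif20a, Tpx2, Foxm1, Mcm4, Gins1 and Gins2.

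CHR letters occurred in 21 of the 26 mitosis windows (80.8%) and in 2 of the 11 S phase windows (18.2%), against 19.2% of all 32851 windows of the table and 14.0% of windows of tested genes. Within 50 bases of the start on either side, they occurred in 20 mitosis windows (76.9%), in 0 S phase windows and in 5.31% of all windows. CCAAT occurred in 84.6% of mitosis and 81.8% of S phase windows, against 37.4% of all windows. E2F letters occurred in 6 of 11 S phase windows (54.5%) and in 1 mitosis window (3.85%), that of Cdk1, against 2.26% of all windows. CHR and CCAAT matches occurred together in 20 mitosis windows (76.9%) and in 7.52% of all windows. Among windows of tested genes, CCAAT occurred in 36.6%, E2F letters in 3.60% and CHR letters within 50 bases of the start in 3.49%. CHR and CCAAT occurred together in 5.61% of them. The E2F share of the mitosis windows was thus near that of tested genes. The mitosis genes without TTTGAA or TTCGAA were Cenpe, Ccnb1, Mad2l1, Birc5 and Nusap1. Since TTTAAA was not counted and occurs in the Cenpe window, they are not shown to lack every form of CHR. Their log2 fold changes were -0.51, -0.12, -0.25, 0.13 and -0.32, spread over nearly the whole range of the mitosis genes. A match is a description of the letters and not a binding site. No test was made of the motifs against the fold changes, and binding was not measured.

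**Figure D1:**
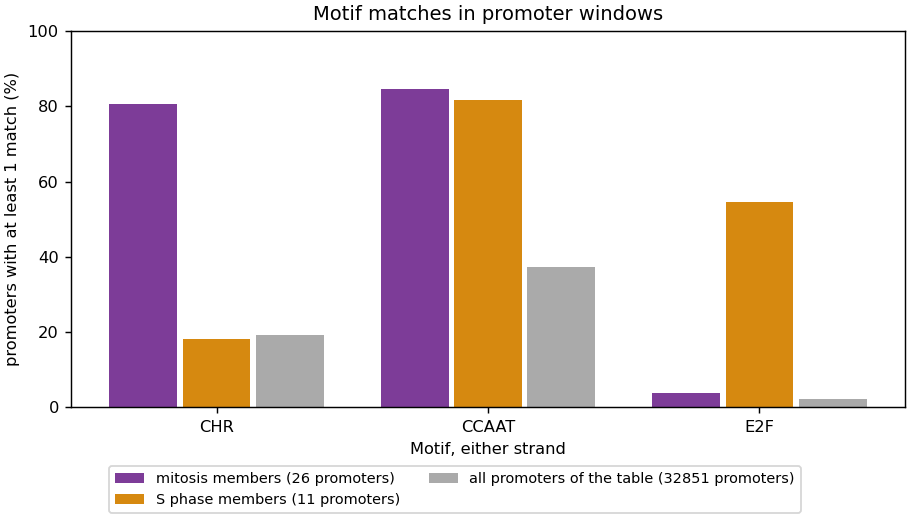
Share of promoter windows (percent, vertical axis) that hold CHR, CCAAT or E2F letters, for windows of the mitosis genes, of the S phase genes and of all genes of the table. CHR letters stand at 80.8% of mitosis windows and 18.2% of S phase windows, and E2F letters at 3.85% and 54.5%.

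No mitosis gene and no S phase gene was called in edgeR's quasi-likelihood test, in a table where 1.84% of tested genes were called lower and 1.5% higher. The smallest adjusted p among them was 0.0609, for Cenpe. The mitosis genes nevertheless lay mostly on 1 side. Of the 30, 27 had a negative fold change, the median was -0.28 (a level 17.7% lower), and the range was -0.57 to 0.13. Over all tested genes the median fold change was 0.00, 49.6% were negative, and the 25th and 75th percentiles were -0.23 and 0.21. At an unadjusted p under 0.05 in edgeR, 17 of the 30 mitosis genes were lower and 0 higher, where 8.03% of all tested genes were lower and 7.75% higher.

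In 17 mitosis genes (56.7%) every cKO library lay below every WT library, and in 0 every cKO library lay above, against 10.9% and 10.7% of all tested genes. The 17 were Plk1, Cenpe, Bub1, Cenpf, Ect2, Kif23, Incenp, Nusap1, Kif4, Aurkb, Tpx2, Cdk1, Anln, Foxm1, Kif11, Ccna2 and Ccnb1. Of these, 15 also had an unadjusted p under 0.05. These genes share 6 libraries and many are transcribed together, so their counts are not independent of each other. The number without overlap was 15 with DESeq2 size factors (10.6% of tested genes) and 18 with library totals alone (11.9%). The number at an unadjusted p under 0.05 fell to 10 without cKO library 1, 7 without cKO library 3, 11 without WT library 1, 8 without WT library 2 and 6 without WT library 3, where 4.97% to 9.57% of tested genes were lower, and to 11 with no filter on low counts.

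The 13 S phase genes had a median fold change of -0.08 (5.68% lower), with 8 negative and 5 positive values between -0.36 and 0.27. At an unadjusted p under 0.05 in edgeR 1 was lower (Cdc6) and 0 were higher. Every cKO library lay below every WT library for 1 gene (Cdc6) and above for 2 (Mcm6 and Rrm2). The first share, 7.69%, was under the 10.9% of all tested genes. For the second count, 2 of 13, the share of all tested genes was 10.7%. With so few genes, neither count is read as a result about the group. Leaving out a library raises such shares for all genes. The count below was 7 without cKO library 2 (16.4% of tested genes), 3 without WT library 2 (17.1%), 2 without cKO library 1 (19.4%) and 2 without WT library 1 (14.9%). The count above was 4 without cKO library 3 (14.96% of tested genes). The difference between the medians of the mitosis and S phase genes was not tested.

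**Figure D2:**
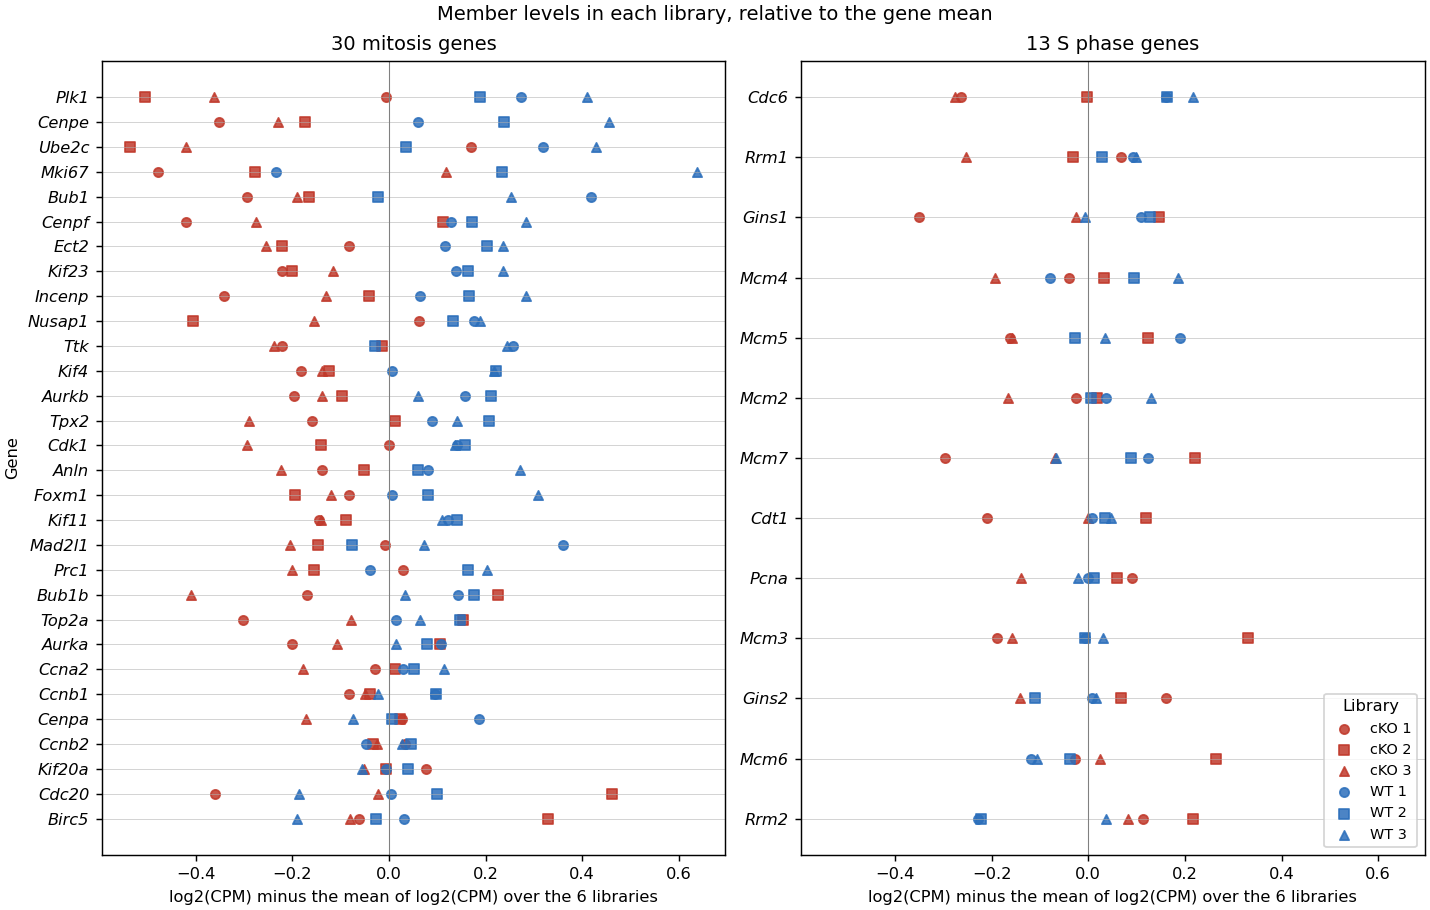
Level of each of the 43 genes in each library, as log2 CPM minus the mean of that gene over the 6 libraries (horizontal axis), with 1 row per gene and 1 point per library. The cKO points lie left of the WT points without overlap in 17 of the 30 mitosis genes and in 1 of the 13 S phase genes, against 10.9% of all tested genes.

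Among CDK1 and the cyclins, Cdk1, the kinase that starts mitosis, measured 80.1, 72.7 and 65.3 CPM in cKO libraries 1 to 3 and 88.4, 89.4 and 88.0 CPM in WT libraries 1 to 3. The WT libraries were nearly equal, and all cKO libraries lay below them. The fold change was -0.29 (SE 0.118, edgeR adjusted p = 0.263). Ccnb1, the cyclin B that activates CDK1 at mitotic entry, measured 57.2, 59.0 and 58.5 CPM in cKO and 64.7, 64.8 and 59.6 CPM in WT. The groups did not overlap, though WT library 3 lay close to the cKO libraries. Its fold change was -0.12 (SE 0.113, edgeR adjusted p = 0.68). Ccna2, a cyclin of S phase and early mitosis, measured 108 ± 7.41 CPM in cKO and 118 ± 3.59 CPM in WT (SD, n = 3 each), and its groups did not overlap. Ccnb2, a second B-type cyclin, measured 63.7 ± 1.61 and 64.5 ± 2.16 CPM (SD, n = 3 each), with overlapping groups and a fold change of -0.02.

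Plk1 had the lowest fold change of the 43 genes. It encodes a kinase that matures centrosomes, drives mitotic entry and recruits ECT2 to the spindle midzone. It measured 56.5, 40.0 and 44.2 CPM in cKO libraries 1 to 3 and 68.6, 64.7 and 75.4 CPM in WT libraries 1 to 3. All cKO libraries lay below all WT libraries, with cKO library 1 the nearest to them. The fold change was -0.57 (SE 0.148, 95% interval -0.90 to -0.24, edgeR adjusted p = 0.0692), and the gene was called in 3 of 17 alternative fits, with the DESeq2 Wald test, with no filter on low counts and without cKO library 1.

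The passenger complex places Aurora B on centromeres and later on the spindle midzone. Its kinase Aurkb measured 59.9 ± 2.05 CPM in cKO against 73.1 ± 3.86 CPM in WT (SD, n = 3 each). Its scaffold Incenp measured 96.8 ± 10.1 and 122 ± 9.41 CPM (SD, n = 3 each), and neither gene overlapped between the groups. The fold changes were -0.29 for Aurkb and -0.34 for Incenp. Birc5, which encodes survivin, the subunit of the same complex that binds centromeric chromatin, had the highest fold change of the mitosis genes. It measured 47.1, 61.8 and 46.5 CPM in cKO and 50.2, 48.2 and 43.1 CPM in WT, so that only cKO library 2 exceeded the WT range (fold change 0.13, SE 0.146, edgeR adjusted p = 0.714). Aurka, the Aurora kinase of centrosomes and spindle poles, measured 50.9 ± 5.64 CPM in cKO and 55.7 ± 1.84 CPM in WT (SD, n = 3 each), with overlapping groups and a fold change of -0.13.

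Of the 6 genes of the spindle checkpoint and anaphase entry, 1 lay below in cKO without overlap, against 10.9% of all tested genes. With so few genes this count is not read as a result about them. Bub1, a checkpoint kinase at kinetochores, measured 65.1, 71.2 and 70.0 CPM in cKO and 107, 78.6 and 95.1 CPM in WT. The cKO libraries lay close together below a wider WT range, and the fold change was -0.44 (SE 0.133, edgeR adjusted p = 0.114). Ube2c, the ubiquitin-conjugating enzyme of the anaphase promoting complex, measured 68.7, 42.2 and 45.7 CPM in cKO and 76.2, 62.6 and 82.2 CPM in WT. Here cKO library 1 lay inside the WT range, and the fold change was -0.50 (SE 0.187, edgeR adjusted p = 0.215). Ube2c was called without cKO library 1 and with no filter on low counts.

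Ttk, which encodes the checkpoint kinase MPS1, had a fold change of -0.32 (edgeR adjusted p = 0.303), Mad2l1, the checkpoint protein MAD2 that binds CDC20, one of -0.25, and Bub1b, its partner BUBR1, one of -0.21. In each of these 3 genes the groups overlapped. Cdc20, the activator of the anaphase promoting complex and the target of the checkpoint, measured 86.1, 152 and 109 CPM in cKO and 111, 118 and 97.1 CPM in WT. The cKO libraries spread on both sides of the WT libraries (fold change 0.09, SE 0.184, edgeR adjusted p = 0.866).

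Cenpe had the smallest p of the 43 genes. It encodes a kinesin at kinetochores that moves chromosomes to the spindle equator. It measured 102, 115 and 111 CPM in cKO libraries 1 to 3 and 135, 153 and 178 CPM in WT libraries 1 to 3. The lowest WT library lay above the highest cKO library by more than the whole cKO range. The fold change was -0.51 (SE 0.129, 95% interval -0.79 to -0.23, edgeR adjusted p = 0.0609). Cenpe was called in 5 of 17 alternative fits, with library totals alone, the DESeq2 Wald test, no filter on low counts, protein-coding genes only and the replicate number as a block. Cenpf, a large protein of the outer kinetochore, measured 169 ± 33.3 CPM in cKO and 219 ± 12.3 CPM in WT (SD, n = 3 each), a fold change of -0.37, and was called without cKO library 2, its highest cKO library. Cenpa, the histone H3 variant of centromeres, overlapped between the groups (fold change -0.08).

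Of the 9 genes of the spindle and cytokinesis, which belong to the 30, 7 had every cKO library below every WT library, against 10.9% of all tested genes. The median fold change of the 9 was -0.29. Kif23, the kinesin of the centralspindlin complex that organises the spindle midzone, measured 87.0, 88.2 and 93.7 CPM in cKO and 112, 114 and 119 CPM in WT. Both groups were tight and well apart, and the fold change was -0.36 (SE 0.107, 95% interval -0.59 to -0.12, edgeR adjusted p = 0.111). Ect2, which activates RHOA for the cleavage furrow and is bound by centralspindlin, measured 56.2 ± 3.61 CPM in cKO and 72.6 ± 3.14 CPM in WT (SD, n = 3 each), a fold change of -0.37 (edgeR adjusted p = 0.13). Anln, the actin-binding scaffold anillin of the contractile ring, had a fold change of -0.28. Kif11, the kinesin that pushes spindle poles apart, measured 122, 127 and 122 CPM in cKO and 147, 148 and 145 CPM in WT. These were among the tightest groups of the set, at a fold change of -0.25.

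Tpx2, the activator of Aurora A on spindle microtubules, had a fold change of -0.29, Nusap1, a microtubule bundling protein, one of -0.32, and Kif4, a chromosome-bound kinesin that also acts at the midzone, one of -0.30, all without overlap. Prc1, the protein that crosslinks midzone microtubules, had a fold change of -0.22 with overlapping groups. Kif20a, a midzone kinesin that carries the passenger complex, measured 60.7 ± 2.72 CPM in cKO and 60.1 ± 1.97 CPM in WT (SD, n = 3 each), a fold change of 0.01. Since the sources used here do not give the strand setting of the counting, reads of overlapping genes on opposite strands cannot be told apart. Cdc23, on the strand opposite Kif20a, held 187% of the Kif20a count, and Pdzd11, Oip5 and Rccd1 held 36.8%, 23.9% and 22.9% of the counts of Kif4, Nusap1 and Prc1. Exosc9 held 19.1% of the count of Ccna2. These are whole counts of the neighbours and not counts in the shared stretch. In the order named, the shared stretches span 1665, 832, 172, 21782 and 863 bases of the genome.

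Mki67, which encodes the proliferation marker Ki-67 that coats mitotic chromosomes, varied more between libraries than most of the set. It measured 330.2, 379.6 and 499 CPM in cKO libraries 1 to 3 and 391, 541 and 715 CPM in WT libraries 1 to 3. The highest cKO library lay above the lowest WT library, and the fold change was -0.45 (SE 0.216, edgeR adjusted p = 0.355). Top2a, the topoisomerase that untangles sister chromatids, measured 347, 476 and 406 CPM in cKO and 433, 474 and 448 CPM in WT, with cKO library 2 at the top of the WT range (fold change -0.14, SE 0.139, edgeR adjusted p = 0.683). Foxm1, the transcription factor that activates late cell cycle genes together with MuvB, measured 106 ± 4.17 CPM in cKO and 128 ± 14.2 CPM in WT (SD, n = 3 each), without overlap, at a fold change of -0.27.

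**Figure D3:**
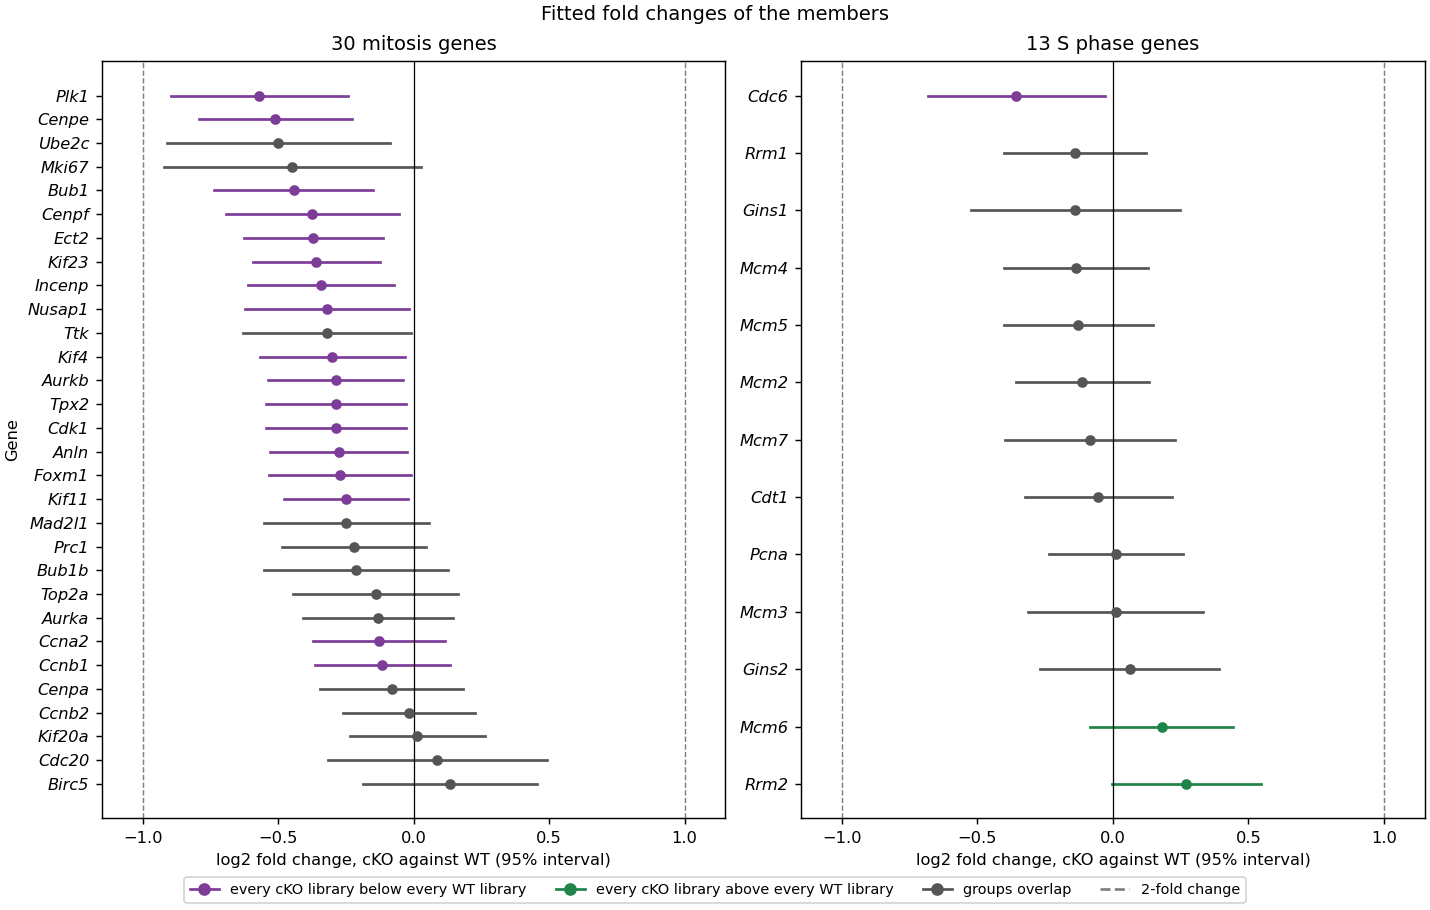
Fitted log2 fold changes of the 30 mitosis genes (left) and the 13 S phase genes (right), cKO against WT, with 95% intervals as bars and dashed lines at a 2-fold change. Colours mark genes whose libraries did not overlap between the groups. Mitosis genes run from -0.57 (Plk1) to 0.13 (Birc5) and S phase genes from -0.36 (Cdc6) to 0.27 (Rrm2), and no bar reaches a 2-fold change.

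Among the S phase genes, Cdc6, the loader of the MCM helicase, was the 1 gene with every cKO library below every WT library. It measured 19.2, 22.9 and 19.0 CPM in cKO and 25.7, 25.7 and 26.7 CPM in WT, a fold change of -0.36 (SE 0.148, edgeR adjusted p = 0.269). Its unadjusted p stayed under 0.05 in 1 of the 6 fits that each left out a library, that without cKO library 2. Cdt1, which loads the helicase together with CDC6, measured 67.3 ± 7.66 CPM in cKO and 69.8 ± 0.954 CPM in WT (SD, n = 3 each), a fold change of -0.05. Gins1 and Gins2, subunits of the GINS complex that activates the helicase, had fold changes of -0.14 and 0.06. The whole count of Gse1, on the strand opposite Gins2, was 340.4% of the Gins2 count, and these genes share 2758 bases of the genome.

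The 6 MCM genes, which encode the hexameric replicative helicase, lay within a narrow band, from -0.14 (Mcm4) to 0.18 (Mcm6), with a median of -0.10. Mcm6 measured 240.2, 294 and 249 CPM in cKO and 226, 239 and 228 CPM in WT. Every cKO library lay above every WT library, cKO library 1 by a small margin (fold change 0.18, SE 0.121, edgeR adjusted p = 0.524). Mcm2 measured 150.3, 155 and 136 CPM in cKO and 157, 154 and 167 CPM in WT, with overlapping groups (fold change -0.11, SE 0.112, edgeR adjusted p = 0.68). Mcm3, Mcm5 and Mcm7 had fold changes of 0.01, -0.13 and -0.08, with overlapping groups. The whole counts of Cops6 and Ap4m1, on the strand opposite Mcm7, were 43.2% and 25.8% of the Mcm7 count. They share only 64 and 421 bases of the genome with Mcm7.

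Pcna, the sliding clamp, measured 144, 141 and 122 CPM in cKO and 135, 136 and 133 CPM in WT. The cKO libraries lay on both sides of the WT libraries, and the 95% interval of the fold change of 0.01 ran from -0.24 to 0.26 (edgeR adjusted p = 0.975). Rrm2, the regulated subunit of ribonucleotide reductase, had the highest fold change of the 43 genes. It measured 67.0, 72.1 and 65.6 CPM in cKO and 52.9, 53.2 and 63.6 CPM in WT, with every cKO library above every WT library and WT library 3 close to them (fold change 0.27, SE 0.124, edgeR adjusted p = 0.324). Rrm1, the large subunit of the same enzyme, measured 175, 163 and 140.0 CPM in cKO and 178, 170.1 and 179 CPM in WT, with a fold change of -0.14 (SE 0.119, edgeR adjusted p = 0.627). The 2 subunits thus had fold changes of opposite sign, neither of which passed the test.

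The intervals give the precision of each fold change in RNA of the whole testis, and they do not limit a change within 1 cell type. The 95% interval, not adjusted for the number of genes, lay inside a 2-fold change in either direction for all 43 genes, and inside a 1.5-fold change for 19 of 30 mitosis and 12 of 13 S phase genes. For comparison, 11934 of the 18383 tested genes had an interval inside a 2-fold change and 6896 had one inside a 1.5-fold change. No S phase gene was called in any of the 17 alternative fits.

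Levels can be compared between genes per length, as the deposited FPKM. In the WT testes the highest of the 43 genes were Cdc20 at 57.5 ± 5.74 FPKM, Pcna at 55.5 ± 0.707, Mki67 at 53.9 ± 16.1, Top2a at 49.5 ± 2.50 and Mcm6 at 48.9 ± 1.67 (SD, n = 3 each). Neighbours in this order were within their SDs of each other. The lowest were Cdc6 at 4.93 ± 0.120 FPKM, Gins2 at 5.40 ± 0.245, Ttk at 7.94 ± 0.836 and Mad2l1 at 8.10 ± 1.23 (SD, n = 3 each), of which Ttk and Mad2l1 were not separated by their SDs. In the cKO testes Cdc20 (61.4 ± 17.8 FPKM) and Cdc6 (3.86 ± 0.427) again stood among the highest and lowest of these genes.

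Summed over its genes, the mitosis group measured 2905, 3243 and 3058 CPM in cKO libraries 1 to 3 and 3483, 3682 and 3930 CPM in WT libraries 1 to 3. All cKO sums lay below all WT sums. The S phase group measured 1450, 1681 and 1409 CPM in cKO and 1542, 1533 and 1555 CPM in WT, so that the cKO sums lay on both sides of 3 nearly equal WT sums. In cKO library 2 the S phase sum was the highest of the 6, and that library held the highest value of 6 of the 13 S phase genes, while cKO library 3 held the lowest of 6 and cKO library 1 the lowest of 5. Of the 30 mitosis genes, 13 had their lowest value in cKO library 1, 10 in cKO library 3 and 4 in cKO library 2, and 13 had their highest in WT library 3.

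The 43 genes were set beside 193 other cell cycle genes, of which 189 were tested. Of these 3 were called lower by edgeR and 0 higher, where 1.84% of all tested genes were called lower and 1.5% higher, so these counts do not stand above the background. Every cKO library lay below every WT library in 40 (21.2%) and above in 5, against 10.9% and 10.7% of all tested genes, which are also the shares to set beside the counts of the single lists. The median fold change was -0.10. Other spindle, kinesin and cytokinesis genes came nearest to the mitosis group, with 12 of 40 below, 0 above, 0 called and a median of -0.19. Their 3 smallest p belonged to Mastl, the kinase that restrains a phosphatase opposing CDK1 (fold change -0.51, edgeR adjusted p = 0.111), Kif18b, a microtubule depolymerising kinesin (-0.40, adjusted p = 0.121), and Cks2, a small CDK-binding protein (-0.50, adjusted p = 0.134). Other kinetochore genes had 7 of 37 below, 0 above, 0 called and a median of -0.13. Among them was Sgo1, the protector of centromeric cohesion (fold change -0.48, edgeR adjusted p = 0.0995). Condensin and cohesin genes had 5 of 17 below, 0 above, 0 called and a median of -0.12, among them the condensin subunits Ncapd3 (-0.38) and Smc4 (-0.25).

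In the anaphase promoting complex list 1 of 17 genes was called. Anapc15, the subunit that helps turn over the checkpoint complex, measured 14.4, 12.4 and 15.5 CPM in cKO and 26.1, 25.3 and 23.7 CPM in WT. The groups were far apart for the spread within each, and Anapc15 fell by 0.83 on the log2 scale (SE 0.159, edgeR adjusted p = 0.015). The call was lost in 5 of 17 alternative fits, among them those without WT library 1, 2 or 3, where the adjusted p reached 0.0868 at most. The list as a whole had 2 genes below, 3 above and a median of -0.03, with Anapc11, the catalytic RING subunit, at 0.41 (edgeR adjusted p = 0.215).

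The E2F, RB and DREAM list, the regulators named in the background above, held 2 called genes of 21. Mybl1, which encodes the transcription factor A-MYB, best known from spermatocytes, measured 29.96, 34.7 and 28.4 CPM in cKO and 58.6, 56.3 and 54.3 CPM in WT. Every cKO library was far below every WT library, and Mybl1 fell by 0.86 on the log2 scale (SE 0.13, edgeR adjusted p = 0.00362), a call that held in 17 of 17 alternative fits. E2f6, a repressor of the E2F family that acts without RB, measured 83.0, 89.8 and 74.6 CPM in cKO and 115, 114 and 117 CPM in WT. It fell by 0.48 on the log2 scale (SE 0.114, edgeR adjusted p = 0.0445). The E2f6 call held in 9 of 17 alternative fits. It was lost, among others, without cKO library 1 or 3 and without WT library 1, 2 or 3, with an edgeR adjusted p of up to 0.215. E2f7, an atypical repressor that is itself an E2F target, had a fold change of -0.53 (edgeR adjusted p = 0.0818). In all, 5 of the 21 lay below, 1 above, and the median was -0.15.

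Other origin and replication fork genes, which act in S phase, had 9 of 45 below, 1 above, 0 called and a median of -0.06. The smallest p were those of Ticrr, an origin firing factor (fold change -0.42, edgeR adjusted p = 0.133), Pole, the catalytic subunit of the leading strand polymerase (-0.31, adjusted p = 0.195), and Dbf4, the activator of the kinase CDC7 (-0.35, adjusted p = 0.21). Dnmt1, the maintenance DNA methyltransferase and the most abundant of this list, had a fold change of -0.05. Of 12 nucleotide supply genes 0 were called and 0 lay apart in either direction, with a median of -0.07.

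**Figure D4:**
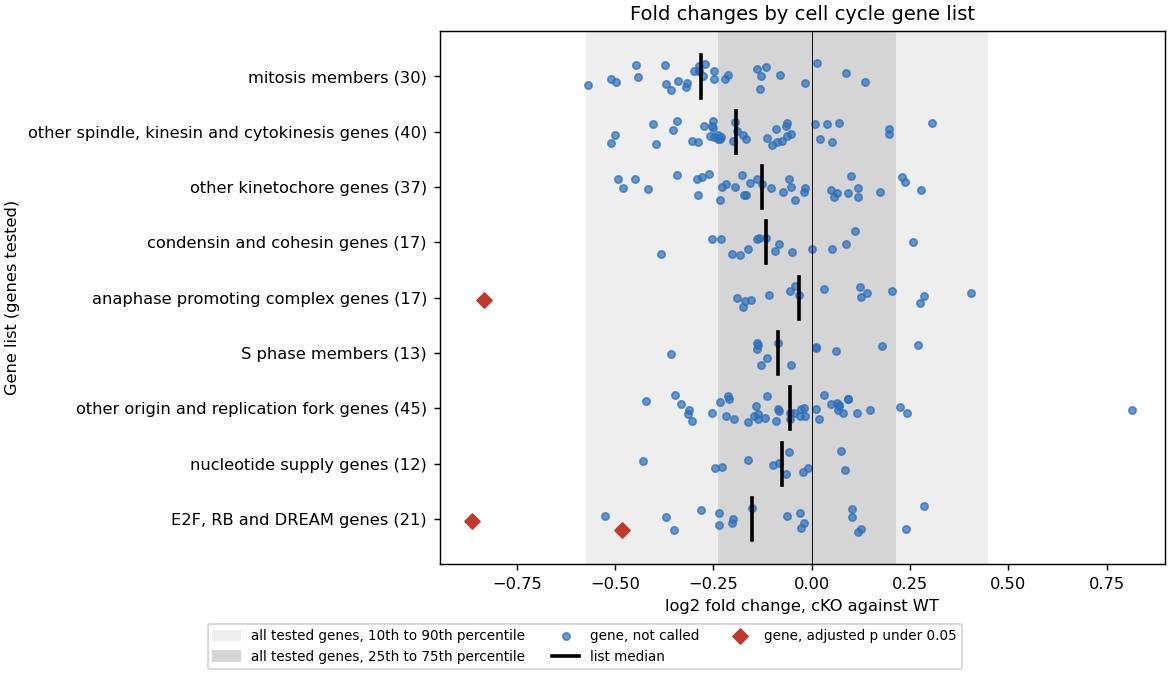
Log2 fold changes, cKO against WT (horizontal axis), of each tested gene in the mitosis and S phase groups and in 7 other cell cycle lists, with 1 point per gene, a bar at the list median and diamonds for called genes. Grey bands give the percentiles of all tested genes. Medians run from -0.28 for the mitosis genes to -0.03 for the anaphase promoting complex genes, and the 3 called genes are Anapc15, Mybl1 and E2f6.

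Marker genes of testis cell types were measured in the same libraries. The summed level of 12 Sertoli markers was 1734, 1834 and 1426 CPM in cKO libraries 1 to 3 and 3100, 4010 and 3384 CPM in WT libraries 1 to 3, with 9 of 12 called lower by edgeR, 0 higher and a median fold change of -1.43. All 12 markers were detected in every library, with at least 160 counts. Sox9, which directs Sertoli cell fate, had a log2 fold change of -1.03 (edgeR adjusted p = 0.0106), Wt1 one of 0.23 (adjusted p = 0.37) and Nr5a1 one of 0.05 (adjusted p = 0.884). The other 10 of the 12 had negative fold changes. Levels in whole testes do not show which cell type a transcript came from, so these values do not report on Sertoli cells alone. The part of these levels in the fold changes of the cell cycle genes was not tested.

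Of 12 germ cell markers 10 were tested and 0 called. Their summed level was 678, 1252 and 934 CPM in cKO libraries 1 to 3 and 1346, 976 and 1107 CPM in WT libraries 1 to 3. It was lowest in cKO library 1 and highest in WT library 1, and the groups overlapped. Nanos2, a germ cell marker with 0 to 16 counts per library, did not pass the filter. Fetal Leydig markers summed to 6844, 5005 and 5319 CPM in cKO and 4497, 4453 and 3794 CPM in WT, with 0 of 6 called. All 6 had positive fold changes (median 0.47), and 4 were higher at an unadjusted p under 0.05 in edgeR. In 3 of 6 every cKO library lay above every WT library. Interstitial markers summed to 7418, 10096 and 9481 CPM in cKO and 4944, 7538 and 6154 CPM in WT, with 0 of 6 called. All 6 were higher at an unadjusted p under 0.05 in edgeR (median 0.45), and 5 of 6 lay above without overlap. Of all tested genes 7.75% were higher at that p and 10.7% lay above. Of 4 peritubular, 5 endothelial, 6 macrophage and 4 erythroid markers tested, 1, 1, 0 and 1 were called higher (Des, Kdr and Hba-a1) and 0 lower. The part of these levels was not tested either, and the division rate of each cell type was not measured.

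**Figure D5:**
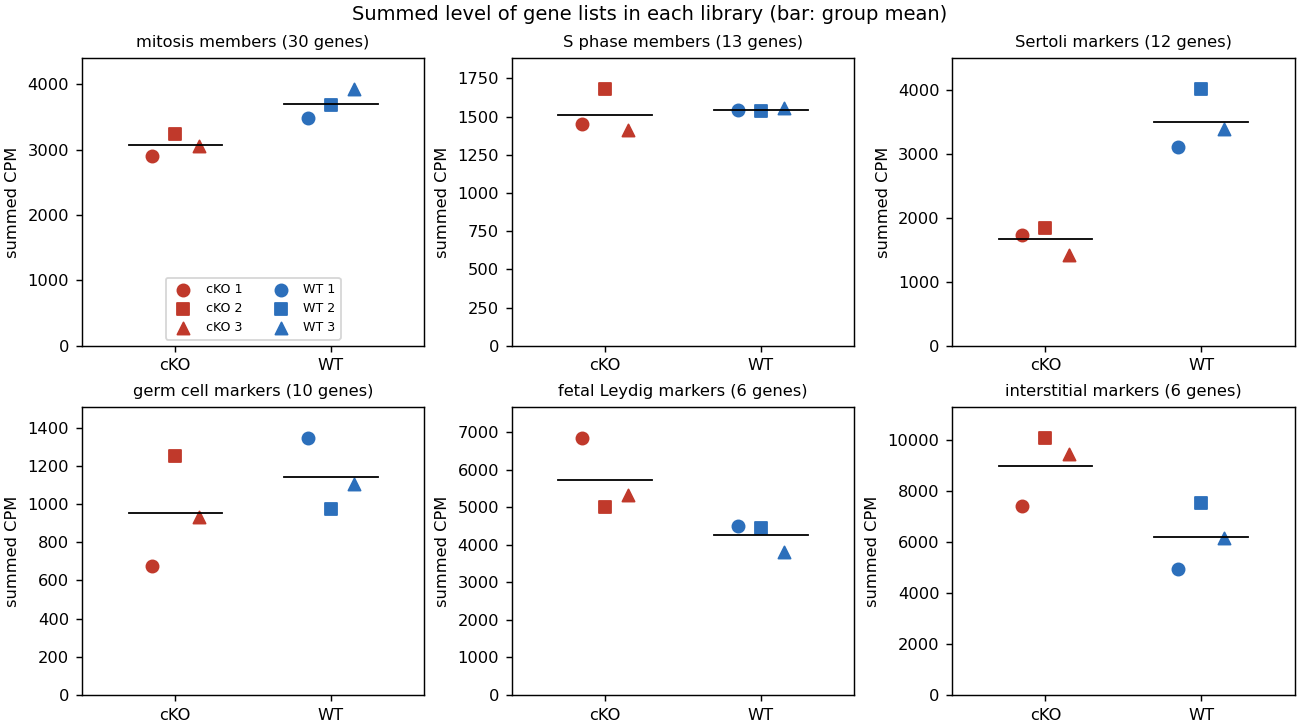
Summed CPM (vertical axes) of the mitosis genes, the S phase genes and marker lists of testis cell types in each of the 6 libraries, with 1 point per library and a bar at each group mean. The mitosis sums of the cKO libraries (2905 to 3243) lie below those of the WT libraries (3483 to 3930), as do the Sertoli sums, while the S phase sums overlap.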

How the data were processed

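Polyadenylated RNA of whole E16.5 testes was sequenced in 6 libraries, labelled by group and replicate number. The authors deposited whole-number counts per gene, not normalised, and FPKM per library, per the file headers. Per the submitters' processing notes, HISAT2 2.0.5 and the build GRCm38 were used, although the gene identifiers and coordinates in the files are those of the C57BL/6NJ strain. File coordinates were therefore used only to find genes that overlap each other. Promoter windows come from RefSeq for GRCm38.p6, matched by symbol. The sources used here do not give the counting tool, its strand setting or the annotation release.

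Counts were tested in R 4.3.3 with edgeR 4.0.16: filterByExpr (18383 genes kept), TMM scaling, glmQLFit and glmQLFTest without covariates, and Benjamini-Hochberg adjustment over all tested genes at 0.05. The SE was taken as |log2 fold change| / √F, and 95% intervals from a t distribution with the residual plus prior degrees of freedom of the fit. Centred levels are log2 CPM with a prior count of 2. The biological coefficient of variation was 19.7%. Libraries of 1 group differed far beyond sampling noise, with chi-square values of 13.5 to 40.5 per degree of freedom, so each was counted as 1 replicate.

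The genes, lists and alternatives were chosen with earlier results of these data known. Of 296 list symbols 289 were matched, 3 of them by a synonym. Values in every library were given, in the mitosis and the S phase group each, for the 4 genes with the smallest p, the 2 with the highest mean FPKM and those with the highest and lowest fold change, and always for Mki67, Top2a, Ccnb1, Cdk1, Pcna and Mcm2. Ube2c and Kif11 were added after their values were seen. In the other lists the 3 genes with the smallest p and the most abundant gene could be named, with Cdkn1a and Csnk1a1 always. Some genes that the rule takes are not reported here. The Sertoli markers Sox9, Wt1 and Nr5a1 and the germ cell marker Nanos2 were named outside this rule. Alternatives were DESeq2 1.42.0 (size factors, Wald test), upper-quartile factors, library totals alone, limma-voom and limma-trend on log2 FPKM (limma 3.58.1), other filters, protein-coding genes only, a replicate block, and each library left out in turn.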

Additional observations from a re-analysis of the deposited data

How the results depend on the processing

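The median fold change of the mitosis genes stayed negative in all 17 alternatives, between -0.31 and -0.24, and that of the S phase genes between -0.15 and -0.01. No S phase gene was called in any of them. The count of called mitosis genes was 1 with library totals alone, 2 with the DESeq2 Wald test, 3 with no filter on low counts, 1 with protein-coding genes only, and 0 to 2 when 1 library was left out (2 without cKO library 1, 1 without cKO library 2). Calls over all tested genes, 615 in the report, numbered 1101 with the DESeq2 Wald test, 372 and 397 with limma-trend on FPKM with pseudocounts of 0.1 and 1, 1264 with no filter, and 272 to 723 when 1 library was left out. The cause of these changes was not tested. Counts of genes without overlap and of genes at an unadjusted p were added as alternatives after the data were seen. Leaving out 1 library gave 17 to 21 mitosis genes with every cKO library below every WT library, where 13.6% to 19.4% of tested genes were so.

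The labels number the replicates 1 to 3 in both groups, but deviations of same-numbered libraries correlated at 0.017, 0.184 and 0.032, so the numbers were not taken to pair the libraries. With the replicate block 696 genes and 1 mitosis gene (Cenpe) were called, the mitosis median was -0.28 and the S phase median -0.10.

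Every one of the 43 genes had at least 209 counts per library. With 3 libraries per group the 95% intervals of their log2 fold changes reached from -0.92 to 0.54. The parts of depth and of the number of libraries in this width were not tested.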

Other observations

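Across the 43 genes, longer gene models had lower fold changes (Pearson r with log2 length = -0.33, Spearman rho = -0.33, lengths of 1516 to 15433 bases). Within the 30 mitosis genes the values were -0.31 and -0.23, and within the 13 S phase genes -0.16 and -0.07. These are descriptions across genes that share 6 libraries, and genes are not independent replicates. The relation was not computed over all tested genes, so it cannot be called particular to this set.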
